A study of Mus musculus with 4 samples.

Results

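The 9 genes described here, *Olig1*, *Olig2*, *Egfr*, *Nkx2-2*, *Sox8*, *Sox10*, *Pdgfra*, *Cspg5* and *Gpr17*, are genes of oligodendrocyte specification, and they were taken by symbol from the 32285 genes counted in the series. All 9 were found, each under 1 gene identifier. They were followed from primitive oligodendrocyte precursors through dividing and resting oligodendrocyte progenitor cells (OPCs) to committed precursors, and in the other cell types of the same brains.

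Oligodendrocytes, the myelinating glia of the brain, arise from neural progenitors that first switch on basic helix-loop-helix factors, then become migratory and dividing OPCs that depend on platelet-derived growth factor, and finally leave the cell cycle as committed precursors that begin to make myelin. OLIG2 and OLIG1 start and maintain this programme. SOX8, SOX10 and NKX2-2 carry it toward differentiation, EGFR and PDGFRA are growth factor receptors, CSPG5 (neuroglycan C) is a membrane proteoglycan of glia and neurons, and GPR17 is a G protein-coupled receptor known as a marker of precursors in transition to oligodendrocytes.

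Single-cell RNA sequencing was performed on tdTomato+ cells sorted from the forebrain of C57BL/6 mice at postnatal day 5, in 4 libraries of 3 pooled mice each. Control mice were NestinCreERT2/tdTomato/Chd8+/+ and mutant mice NestinCreERT2/tdTomato/Chd8+/F, with 2 libraries per genotype. Both genotypes carried the tamoxifen-inducible Cre driven by the Nestin promoter and the tdTomato reporter, and both had received tamoxifen through the dam in midgestation, so that in the mutant 1 floxed allele of *Chd8*, a chromatin remodeler gene, could be deleted in Nestin-expressing progenitors and their progeny. The comparison between genotypes addresses how loss of 1 *Chd8* allele in midfetal progenitors changed these cells.

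The files held 27742 cell barcodes, of which 17623 were kept (unique molecular identifiers [UMIs] between 2000 and 40000, a minimum of 1000 genes, and a mitochondrial share no higher than 10%). Replicates 1 and 2 differed beyond their number: the file headers named one software version for both replicate 1 libraries and another for both replicate 2 libraries, 79.1% and 79.3% of barcodes were kept in replicate 1 against 48.7% and 45.1% in replicate 2, and *Xist*, the RNA of the inactive X chromosome, was at 0.15 counts per 1000000 UMIs (CPM) in both replicate 1 libraries against 1633 and 1749 CPM in replicate 2. By *Xist*, replicate 2 libraries held female cells and replicate 1 libraries almost none, in both genotypes, although the study states that male mice were used. Sex, software version and replicate number cannot be told apart here. Each replicate number holds 1 control and 1 mutant library, and mutant-to-control ratios or directions within a number are therefore given beside the pooled comparisons. *Chd8* itself was at 61.7 and 89.8 CPM in the control libraries and at 68.7 and 94.9 CPM in the mutant libraries, but the deleted exons lie away from the 3′ end that is counted, so these values do not check the deletion. Between 13 and 29 kept barcodes of each library also occurred in another library.

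The oligodendrocyte lineage comprised 4205 cells in 4 stages, built by clustering without the 9 genes and named from other markers, so each name stands for a cluster with that profile. The primitive OPC-like (pri-OPC-like) cluster had 588 cells. All 7 of its markers, such as *Dll1* and *Dll3*, were detected in at least 10% of its cells. The 7 summed to 1390 to 1752 CPM there, against 332 to 631 CPM in resting OPC-like cells. *Gsx1*, 1 of the 7, went the other way, at 20.3 ± 11.2 CPM against 31.1 ± 3.89 CPM. The 9 inhibitory neuron markers summed to 163 to 423 CPM in pri-OPC-like cells, against 45.1 to 180 CPM. The 10 dividing markers summed to 1359 to 1891 CPM there, against 317 to 456 CPM in resting OPC-like cells. The 11 astrocyte markers summed to 1543 to 1907 CPM, against 588 to 888 CPM. At a clustering resolution of 2 instead of 1, 285 cells were named dividing primitive OPC and stood outside the 4 stages. Dividing OPC-like cells numbered 649, with *Mki67* and *Cenpf* among their leading genes, and resting OPC-like cells numbered 2401 in 3 clusters, with *Lhfpl3* and *C1ql1*. Committed OPC-like cells numbered 567, with *Bcas1* and *Enpp6* among their leading genes. By the naming rule this stage also took in clusters scoring highest for oligodendrocyte markers, and 170 of its cells were led by myelin genes. In replicate 2 the 12 oligodendrocyte markers summed to 11590 and 17190 CPM, against 10600 and 13250 CPM for the 8 committed OPC markers. In replicate 1 they summed to 8651 and 9521 CPM, against 12610 and 12950 CPM. 461 of the resting OPC-like cells formed a cluster of low depth (median 3463 UMIs) that held 4 cells in each replicate 2 library, and leaving it out, an alternative chosen after seeing the data, gave a log2 mutant-minus-control difference of −0.785 for *Egfr* in the lineage, against −0.787 with it.

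In the genome (mm10, GENCODE annotation) *Olig2* and *Olig1* lie on the plus strand of chromosome 16, at 91225457 to 91228677 and at 91269772 to 91271933, with 41094 bases between them. *Egfr* (chromosome 11, 16752203 to 16918158) and *Pdgfra* (chromosome 5, 75152292 to 75198215) are long genes with 154630 and 35900 intronic bases, and *Olig1* is a single exon without an intron. *Nkx2-2* (chromosome 2, 147177546 to 147194243), *Sox8* (chromosome 17, 25565892 to 25570686) and *Sox10* (chromosome 15, 79154908 to 79165240) are on the minus strand, and *Cspg5* (chromosome 9, 110243783 to 110262576) is on the plus strand. Transcripts on the opposite strand overlap *Olig1*, *Egfr*, *Nkx2-2*, *Sox8*, *Pdgfra*, *Cspg5* and *Gpr17*.

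The upstream sequences of the receptor genes *Egfr* and *Pdgfra* are shown because *Egfr* was highest in the primitive stage and *Pdgfra* in the dividing and resting stages. Each run holds the 250 bases before the RefSeq transcript start (GRCm38.p6, plus strand), at chr11:16751953-16752202 for *Egfr* and chr5:75152001-75152250 for *Pdgfra*. Capitals mark an E-box (CANNTG, the same on both strands), the kind of motif that basic helix-loop-helix factors such as OLIG2 bind.
Egfr: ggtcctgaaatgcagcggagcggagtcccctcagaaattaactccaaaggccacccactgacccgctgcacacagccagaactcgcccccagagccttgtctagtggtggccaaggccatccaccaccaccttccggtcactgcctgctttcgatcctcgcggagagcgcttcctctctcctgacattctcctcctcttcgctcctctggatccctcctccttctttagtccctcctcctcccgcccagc
Pdgfra: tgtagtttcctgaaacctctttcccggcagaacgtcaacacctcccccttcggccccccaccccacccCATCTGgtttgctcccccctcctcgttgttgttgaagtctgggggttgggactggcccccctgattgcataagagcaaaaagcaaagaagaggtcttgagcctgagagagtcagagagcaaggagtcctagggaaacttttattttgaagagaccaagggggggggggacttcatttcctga
The *Pdgfra* window held 1 E-box and the *Egfr* window 0, where 66.2% of 32851 mouse promoter windows of this length held at least 1.

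The 4 stages had distinct combinations of the 9 genes. Pri-OPC-like cells combined *Egfr* with *Olig1* and *Olig2* at low *Pdgfra*, *Sox10* and *Gpr17*, dividing and resting OPC-like cells combined high *Pdgfra* and *Cspg5* with *Olig1* and *Olig2*, and committed OPC-like cells had the highest *Nkx2-2*, *Sox8*, *Sox10* and *Gpr17*. Levels below are CPM from counts summed per library and cell type, as mean ± SD over the 4 libraries. Since stages are clusters of the same cells, differences between stages are described and not tested, and since 3′ UMI counts differ between genes in their capture, levels are compared between cell types and not between genes.

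**Figure D1:**
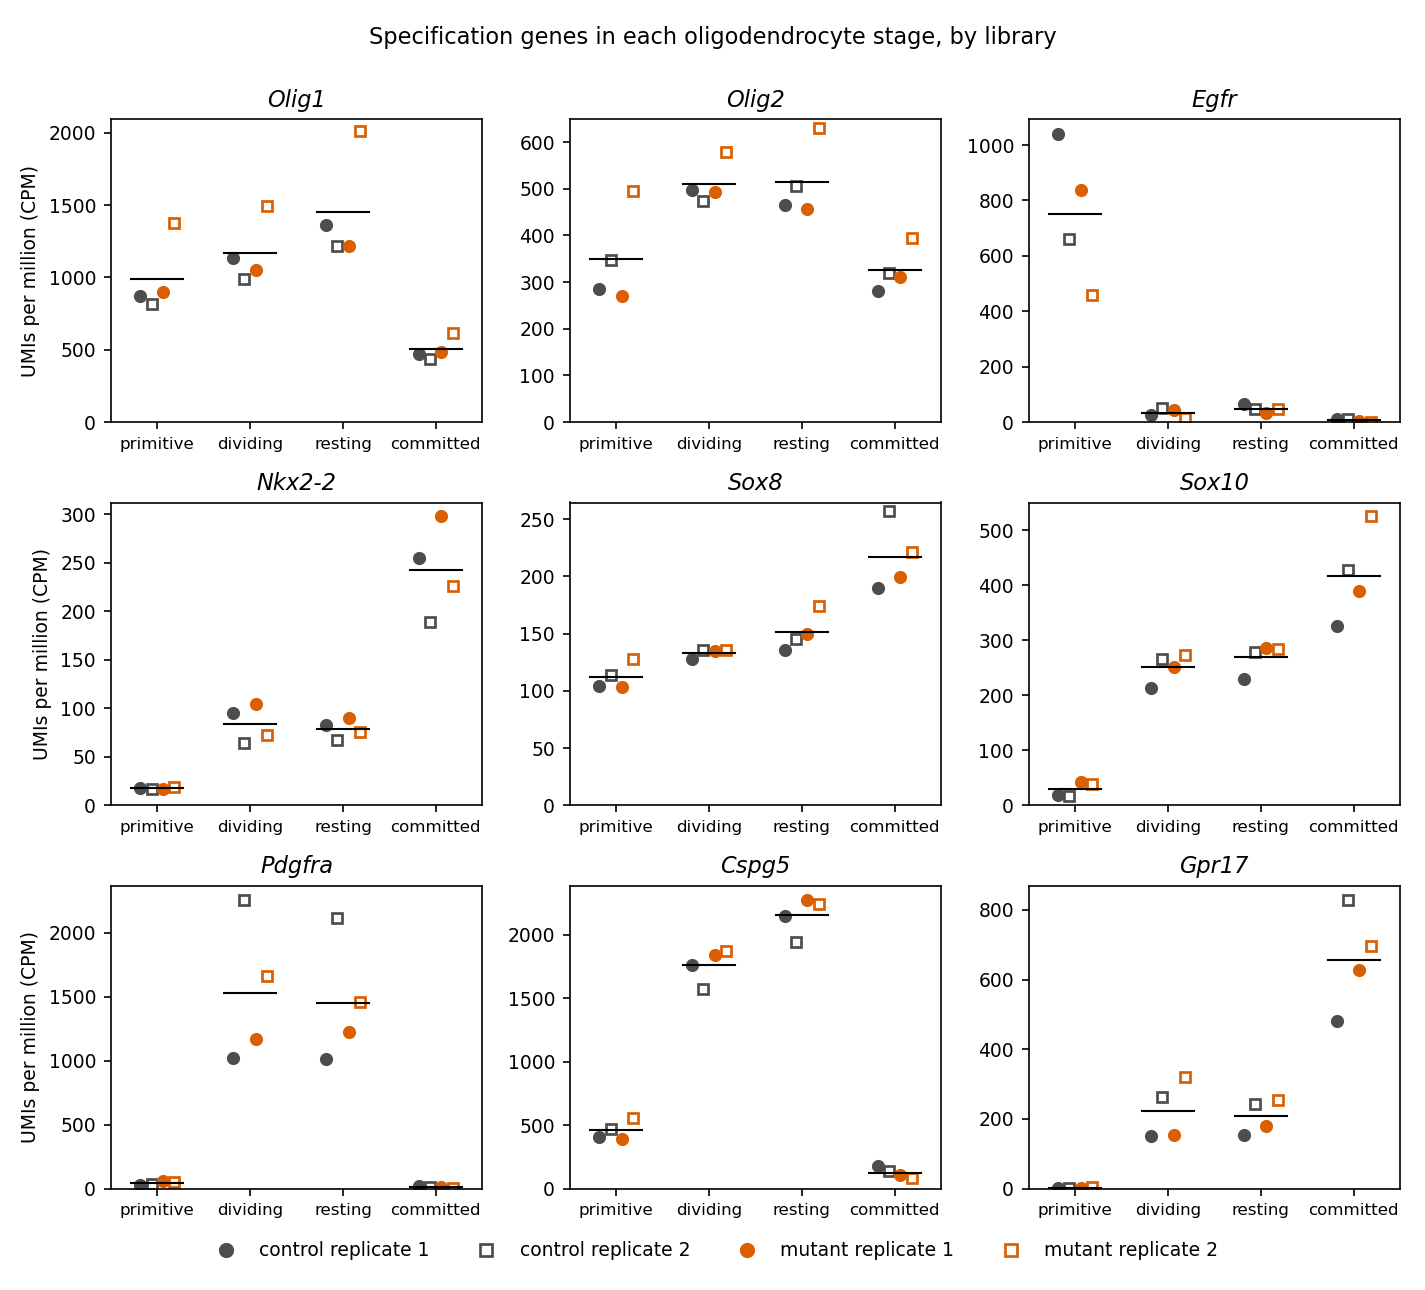
Level (CPM) of each gene in primitive, dividing, resting and committed OPC-like cells, with 1 point per library (filled circles replicate 1, open squares replicate 2, grey control, orange mutant) and a line at the mean of 4 libraries. *Egfr* was highest in primitive cells in all 4 libraries, *Pdgfra* and *Cspg5* in dividing and resting cells, and *Nkx2-2*, *Sox8*, *Sox10* and *Gpr17* in committed cells.

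Among the initiating factors, *Olig1* was at 989 ± 258 CPM in pri-OPC-like, 1168 ± 225 in dividing, 1452 ± 381 in resting and 502 ± 79.8 in committed OPC-like cells (SD, n = 4). This order held within each of the 4 libraries, although the ranges of neighbouring stages overlapped except between primitive and committed cells. Resting OPC-like cells of mutant replicate 2 were the highest at 2014 CPM, against 1215 to 1363 CPM in the other 3 libraries. *Olig2* varied less, at 350 ± 104 CPM in pri-OPC-like, 511 ± 46.5 in dividing, 515 ± 80.3 in resting and 327 ± 47.6 in committed OPC-like cells, and dividing and resting cells did not differ beyond their spread.

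*Olig1* and *Olig2* were also counted outside the lineage. *Olig1* reached 343 ± 79.7 CPM in dividing astrocyte-like, 303 ± 82.2 in astrocyte-like and 210 ± 107 in dividing inhibitory neuron-like cells, and *Olig2* reached 121 ± 21.4, 83.9 ± 26.9 and 128 ± 71.6 CPM in the same types. In microglia-like cells, which should not transcribe either gene, they were at 37.1 ± 15.6 and 11.8 ± 2.14 CPM.

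The factors of the later programme were lowest in pri-OPC-like and highest in committed OPC-like cells. *Sox10*, a master regulator of myelin genes, was at 29.2 ± 13.6 CPM in pri-OPC-like, 251 ± 26.9 in dividing, 270 ± 26.4 in resting and 417 ± 83.5 in committed OPC-like cells. Committed cells were above resting cells 1.36- to 1.85-fold in the 4 libraries, and resting cells were above pri-OPC-like cells in all 4. Outside the lineage the highest *Sox10* level was 9.28 ± 8.99 CPM, in fibroblast-like cells. *Sox8*, a close relative of *Sox10*, had a flatter course, from 112 ± 11.5 CPM in pri-OPC-like through 133 ± 3.79 in dividing and 151 ± 16.6 in resting to 217 ± 29.8 CPM in committed OPC-like cells, so that it was above the level of every other cell type already in the primitive stage. *Nkx2-2*, a homeodomain factor of oligodendrocyte differentiation, was at 17.9 ± 1.20 CPM in pri-OPC-like cells, no higher than the 20.6 ± 2.75 CPM of astrocyte-like cells, at 84.0 ± 19.2 and 79.0 ± 9.57 CPM in dividing and resting OPC-like cells, and at 242 ± 46.0 CPM in committed OPC-like cells, which was 2.80- to 3.32-fold above resting cells within libraries.

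The receptors marked opposite stages. *Egfr*, whose signalling drives expansion of early glial progenitors, was at 1041 and 660 CPM in pri-OPC-like cells of the control libraries (replicates 1 and 2) and at 839 and 459 CPM in those of the mutant libraries. In resting OPC-like cells the same libraries gave 65.8, 46.9, 32.9 and 48.1 CPM, which is 9.53- to 25.5-fold lower within libraries. The level in pri-OPC-like cells stood above that of every other type, the next being dividing astrocyte-like (299 ± 108 CPM), dividing inhibitory neuron-like (274 ± 73.1) and astrocyte-like cells (217 ± 40.9), whose ranges overlapped each other. *Egfr* was at 6.54 ± 5.60 CPM in committed OPC-like cells.

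*Pdgfra*, the receptor that defines OPCs in tissue, went the other way. It was at 26.6 and 36.7 CPM in pri-OPC-like cells of control replicates 1 and 2 and at 62.7 and 49.9 CPM in those of mutant replicates 1 and 2. In resting OPC-like cells it was at 1016 and 2117 CPM in the control and at 1222 and 1460 CPM in the mutant libraries. Dividing OPC-like cells had 1021 and 2256 CPM in the control and 1173 and 1663 CPM in the mutant libraries. Control replicate 2 was the highest in both OPC stages, and dividing and resting cells overlapped. In committed OPC-like cells *Pdgfra* was at 13.1 ± 4.97 CPM, about the 15.1 ± 5.99 CPM of astrocyte-like cells. Fibroblast-like cells, which are known to express *Pdgfra*, had 245 ± 102 CPM.

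*Cspg5* was not confined to the lineage. Resting OPC-like cells had 2152 ± 150 CPM, astrocyte-like cells 1777 ± 310 and dividing OPC-like cells 1762 ± 133, with overlapping ranges from one to the next. It was at 458 ± 73.4 CPM in pri-OPC-like and at 126 ± 40.1 CPM in committed OPC-like cells, close to the 76.1 to 150 CPM of neuron-like, ependymal-like, mural-like, fibroblast-like and microglia-like cells. *Gpr17* was at 2.45 ± 1.71 CPM in pri-OPC-like cells (18 UMIs in 588 cells), 222 ± 84.0 in dividing, 208 ± 48.6 in resting and 657 ± 145 CPM in committed OPC-like cells, 2.73- to 3.48-fold above resting cells within libraries. Its mean level did not exceed 7.49 CPM in any type outside the lineage.

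**Figure D2:**
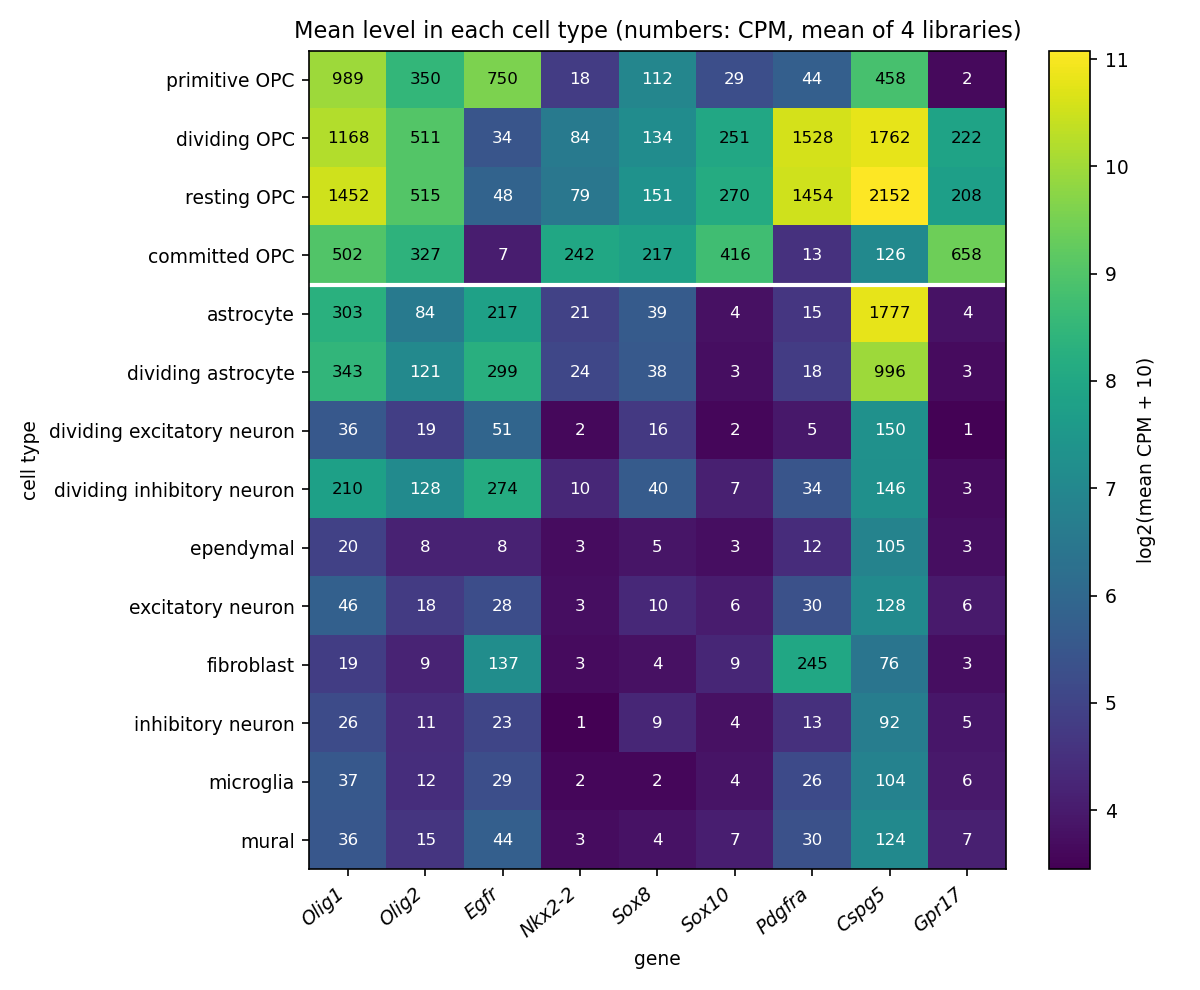
Mean level over 4 libraries in 14 cell types, as numbers in CPM and as colour on a log2(CPM + 10) scale, with the 4 oligodendrocyte stages above the white line. *Sox10* and *Gpr17* were below 10 CPM in all types below the line, whereas *Cspg5* reached 1777 CPM in astrocyte-like cells and *Egfr* 299 CPM in dividing astrocyte-like cells.

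Within resting and committed OPC-like cells the genes varied further. One resting OPC-like cluster of 720 cells had more *Egfr* (81.3 CPM) and less *Pdgfra* (746 CPM) and *Cspg5* (1342 CPM) than the largest cluster of 1220 cells, where *Egfr* was at 26.6, *Pdgfra* at 1698 and *Cspg5* at 2829 CPM over all cells. These directions held in each of the 4 libraries. *Olig2*, *Nkx2-2* and *Sox10* were close in both, at 515 and 516, 84.0 and 85.6, and 276 and 267 CPM. Committed OPC-like cells split into 397 cells led by precursor markers and 170 led by myelin genes. *Mbp*, a major myelin protein gene, was at 1182 and 6274 CPM in these parts, *Gpr17* at 698 and 451 CPM, *Nkx2-2* at 327 and 167 CPM and *Sox10* at 349 and 458 CPM. The myelin-led cells were 39 and 25 in the control and 67 and 39 in the mutant libraries, against 132 and 19 and 227 and 19 precursor-led cells, so replicate 2 libraries held a larger share of myelin-led cells in both genotypes.

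Shares of cells with a UMI gave the same order of stages. After each cell was thinned to 2000 UMIs, *Egfr* was found in 65.9% ± 10.2 of pri-OPC-like cells (SD, n = 4), 3.68% ± 0.926 of dividing, 5.86% ± 1.79 of resting and 0.547% ± 0.635 of committed OPC-like cells. For comparison, *Egfr* was found in 5.06% ± 4.67 of microglia-like and 1.26% ± 0.239 of ependymal-like cells. The mean shares in dividing and resting OPC-like cells were thus near that of microglia-like cells and above those of ependymal-like and committed OPC-like cells. *Pdgfra* was found in 7.80% ± 3.06 of pri-OPC-like, 87.3% ± 9.50 of dividing, 86.4% ± 5.11 of resting and 2.08% ± 2.57 of committed OPC-like cells, against 3.52% ± 3.30 of microglia-like cells. *Gpr17* was found in 0.145% ± 0.289 of pri-OPC-like, 31.8% ± 6.94 of resting and 67.5% ± 10.5 of committed OPC-like cells, against 0.828% ± 0.981 of microglia-like cells. Without thinning, *Egfr* was found in 92.9% of pri-OPC-like and 16.3% of resting OPC-like cells and in 11.3% of microglia-like cells, at median depths of 13680, 8854 and 10720 UMIs.

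**Figure D3:**
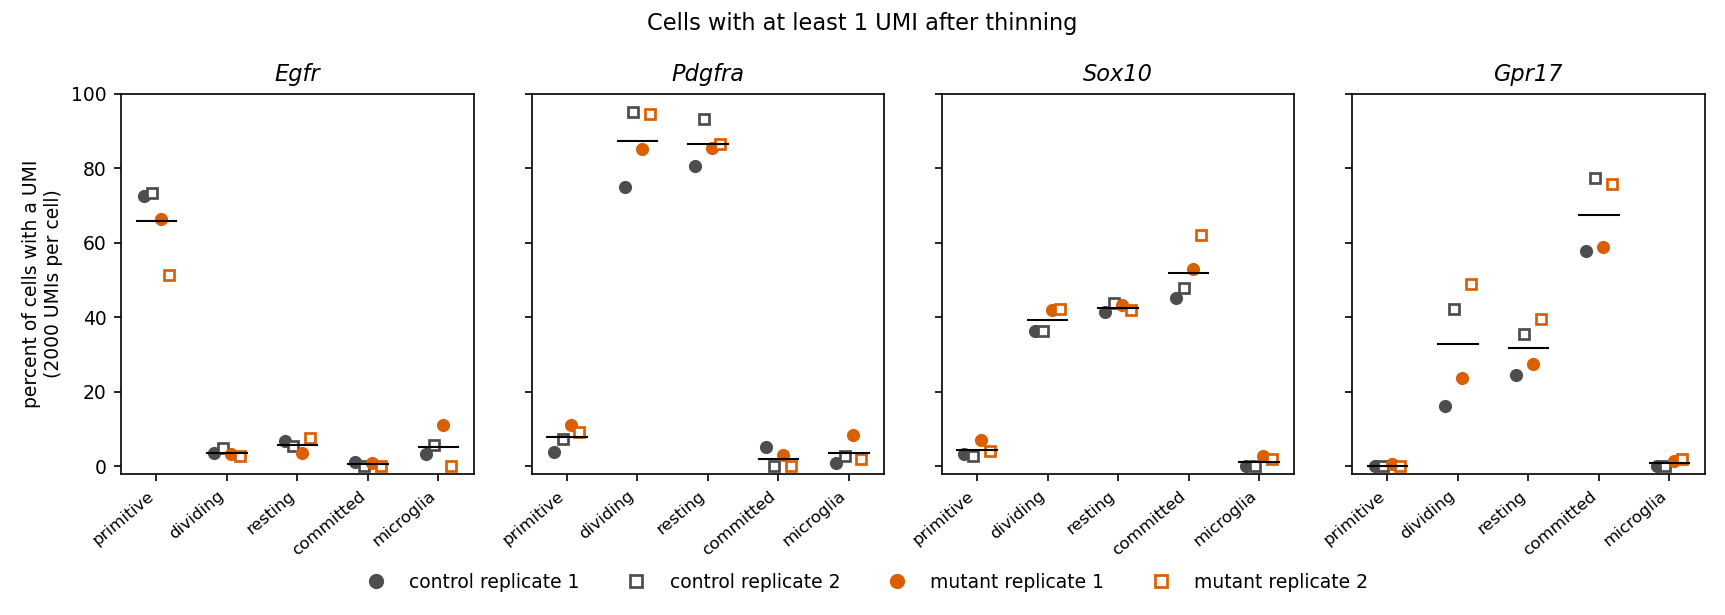
Percent of cells with at least 1 UMI of *Egfr*, *Pdgfra*, *Sox10* or *Gpr17* after thinning to 2000 UMIs per cell, by stage and in microglia-like cells, with 1 point per library and a line at the mean. *Egfr* was found in 51.2% to 73.4% of primitive cells, and in the later stages its share lay within the range of microglia-like cells.

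Members were then counted together in the same thinned cell. *Pdgfra* and *Egfr* shared a cell in 4.05% ± 1.06 of lineage cells, where independent detection of each would give 9.05%. *Egfr* was found in 6.19% ± 1.40 of cells with a *Pdgfra* UMI and in 29.1% ± 11.02 of lineage cells without one. Within pri-OPC-like cells alone, 30 of 588 cells held both, and their share of 5.27% ± 2.08 was near the 5.02% of independent detection. *Pdgfra* and *Gpr17* shared 28.1% ± 7.86 of resting OPC-like cells, near the 27.6% of independent detection, and 12 of 567 committed OPC-like cells. *Olig1* and *Olig2* shared 34.5% ± 7.72 of pri-OPC-like cells, where independence would give 26.2%, and *Olig2* was found in 54.7% ± 9.16 of pri-OPC-like cells with an *Olig1* UMI against 18.7% ± 2.16 of those without. In resting OPC-like cells the corresponding *Olig2* shares were 61.7% ± 6.22 and 56.7% ± 11.96. With 4 libraries the exact two-sided permutation test over libraries cannot give a p below 0.333 for a genotype difference in these shares.

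Across the 14 cell types with at least 20 cells in every library, *Olig1* and *Olig2* had the most similar patterns of all pairs of members, with Pearson's r of 0.99 between mean log2(CPM + 10) values. *Olig2* and *Sox8* followed with 0.97 and *Sox10* and *Gpr17* with 0.97, whereas *Egfr* and *Gpr17* gave −0.42 and *Egfr* and *Pdgfra* 0.02. Among 8351 other genes the pattern most like that of *Egfr* was *Ptch1*, the Sonic hedgehog receptor (r = 0.87), then *Fbln2* and *Dbx2* (0.86 each). For *Sox10* it was *Pllp* (0.99), then *Prkcq* and *Tmem132d*. For *Gpr17* it was *Vxn* (0.996), then *Zfp488* and *Gal3st1*, and for *Pdgfra* *Moxd1* (0.95), then *Trnp1* and *Prkg2*. *Nkx2-2* was nearest to *Abtb2* (0.97), *Cdh13* and *Inava*, *Cspg5* to *Shc3* (0.95), *Ddhd1* and *Gabrg1*, *Sox8* to *Olig2*, *Olig1* and *Rap1gap*, and *Xylt1* was the nearest gene outside the list for both *Olig1* and *Olig2* (0.96 and 0.93). The 14 points share libraries, depth and free RNA, so these values are descriptions. *Xylt1* was also among the OPC markers used to name cell types, so its likeness to *Olig1* and *Olig2* is no independent result.

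Of 40 other genes of the specification route (ligands, Sonic hedgehog components and transcription factors), 13 reached a mean of 100 CPM in at least 1 stage. *Tcf7l2* and *Myrf* were also among the markers used to name cell types, so their stage patterns are no independent result. In pri-OPC-like cells *Hes5*, a Notch effector, was at 360 ± 135 CPM against 135 ± 9.44 in resting OPC-like cells, *Sox4* at 1554 ± 267 against 580 ± 323 and *Ptch1* at 134 ± 31.0 against 54.4 ± 15.5. *Tgfa*, which encodes a ligand of EGFR, was at 9.49 ± 4.47 CPM in pri-OPC-like cells but at 132 ± 4.88 in dividing, 128 ± 9.46 in resting and 122 ± 23.3 CPM in committed OPC-like cells, the reverse of its receptor. *Pdgfa*, which encodes a ligand of PDGFRA, was at 28.3 ± 4.13 CPM in resting and 219 ± 59.4 CPM in committed OPC-like cells, where its receptor was low. *Tcf7l2* and *Myrf*, factors of differentiation, were at 786 ± 284 and 175 ± 36.8 CPM in committed OPC-like cells and at 100 ± 31.2 and 9.62 ± 1.53 CPM in resting OPC-like cells. *Sox9*, *Id2*, *Myt1*, *Sox5* and *Sox6* were above 100 CPM in resting OPC-like cells, at 199 ± 48.9, 222 ± 97.5, 191 ± 47.6, 440 ± 297 and 963 ± 613 CPM.

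The genotypes were compared on counts summed per library (edgeR quasi-likelihood test, Benjamini-Hochberg adjustment over all genes tested). The p-values measure only the spread between these pooled libraries, in part as pooled over genes by edgeR. Each sum is scaled to its own total, so the number of cells of a type does not by itself set its level. The level over the 4 stages together also moves with their mix. Within a type, fewer cells with RNA of a gene and less of it per cell cannot be told apart in the sum. Over the 4 stages together, 0 of 14896 genes tested passed an adjusted p of 0.05 (0% called), 9 had an unadjusted p under 0.05 (0.0604%), *Egfr* among them, and DESeq2 called 0. All 9 members were tested and 0 passed. On simulated counts this edgeR fit recovered 0% of 2-fold changes in the lineage. Its 0 calls therefore do not show that such changes were absent. With the replicate number as a block, the fit called blocked from here on, 7 genes passed (0.047% called), and *Egfr* was 1 of them. The others, named after their values were seen, were the haemoglobin genes *Hbb-bt*, *Hbb-bs*, *Hba-a1* and *Hba-a2*, and *Sox1ot* and *Dlx1*. All 7 were lower in the mutant. With the block little spread per gene remains among the 4 libraries, so the blocked p-values rest largely on spread pooled over genes.

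*Egfr* was lower in the mutant lineage, a call made only in the fit with the block. It was at 228 and 174 CPM in control replicates 1 and 2 and at 129 and 105 CPM in mutant replicates 1 and 2, so the groups did not overlap, as in 5.71% of all genes tested in this direction. The log2 difference (mutant minus control) was −0.79 ± 0.29 (SE), with an unadjusted p of 0.0485 and an adjusted p of 0.9999 in the edgeR fit without the block, and −0.78 ± 0.15 with an adjusted p of 0.0194 with it. Mutant was 0.566-fold of control within replicate 1 and 0.601-fold within replicate 2.

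The mix of stages moved with this difference. Pri-OPC-like cells held 76.8% to 84.3% of the lineage's *Egfr* UMIs, and they made up 16.6% and 17.6% of lineage cells in the control and 10.5% and 14.7% in the mutant libraries (exact permutation p = 0.333, two-sided, the smallest that 2 against 2 libraries allow). With every library set to the mean stage mix, *Egfr* was at 218 and 149 CPM in control and 171 and 104 CPM in mutant libraries, with ratios of 0.783 and 0.702. Within pri-OPC-like cells themselves the groups overlapped, with a mutant-to-control ratio of 0.805 in replicate 1 and 0.695 in replicate 2 and a log2 difference of −0.38 ± 0.41 (adjusted p = 0.9997, edgeR). That difference was −0.03 without control replicate 1, −0.02 without mutant replicate 2, −0.65 without control replicate 2 and −0.87 without mutant replicate 1. At a mitochondrial limit of 5% the mean share of pri-OPC-like cells was 0.578 points lower in the mutant than in the control libraries, against 4.47 points at the limit of 10%, while the log2 difference of *Egfr* in the lineage was −0.69 against −0.79.

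The other members differed by less in the summed lineage. *Sox8* was at 140 and 150 CPM in control and 154 and 161 CPM in mutant libraries, *Sox10* at 208 and 238 against 276 and 269 CPM, and *Cspg5* at 1352 and 1320 against 1416 and 1562 CPM. These 3 did not overlap between groups, with the mutant higher, as in 5.83% of all genes tested, and their log2 differences of 0.12 ± 0.20, 0.29 ± 0.22 and 0.15 ± 0.21 had adjusted p-values of 0.9999. Within replicates 6 of 9 members were higher in the mutant in both (23.5% of all genes tested) and 1 was lower in both (23.4%), and the median log2 difference was 0.19 over the members against 0.01 over all genes tested. Every member but *Egfr* was lower in pri-OPC-like than in resting OPC-like cells in all 4 libraries. Their levels in the sum thus also move with the mix of stages, whose part was not tested for them. Within stages the median log2 difference over the members tested was 0.20 in pri-OPC-like, 0.13 in dividing, 0.13 in resting and 0.04 in committed OPC-like cells. *Olig1* was at 1049 and 981 CPM in control and 962 and 1575 CPM in mutant libraries, and its log2 difference of 0.31 ± 0.31 turned to −0.05 without mutant replicate 2. *Olig2* turned from 0.19 to −0.03 without the same library. *Pdgfra* was at 625 and 1447 CPM in control and 762 and 1083 CPM in mutant libraries, so its direction differed between replicates.

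**Figure D4:**
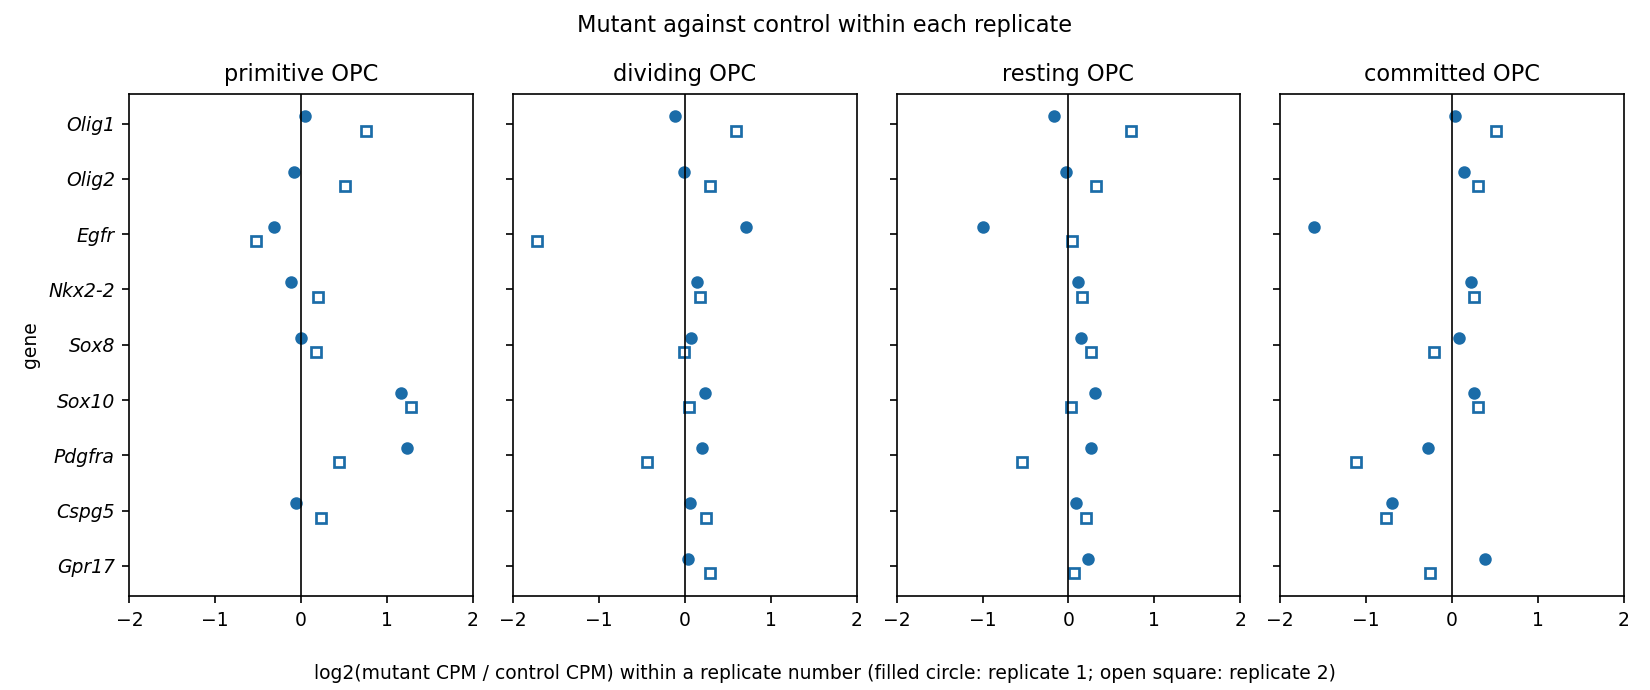
Log2 ratio of mutant to control CPM within each replicate number (filled circles replicate 1, open squares replicate 2) for each gene tested in each stage, with a line at no difference. *Sox10* and *Pdgfra* were above 0 in both replicates of primitive cells and *Cspg5* below 0 in both replicates of committed cells. *Egfr* in committed cells of replicate 2 is not drawn because mutant replicate 2 had 0 UMIs, and *Gpr17* in primitive cells did not pass the filter.

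In pri-OPC-like cells 8 of the 9 members passed the filter on low counts (*Gpr17* did not). 0 of 11312 genes passed the test in this stage without the block (0% called, 10 or 0.0884% at an unadjusted p under 0.05) and 0 with it, and DESeq2 called 0. *Sox10* was at 18.8 and 16.3 CPM in control and 42.2 and 39.5 CPM in mutant libraries. Both mutant libraries were above both control libraries, 2.25-fold within replicate 1 and 2.43-fold within replicate 2, and the log2 difference was 1.23 ± 0.30 (unadjusted p = 0.0109, adjusted p = 0.9997, and 0.252 with the block, edgeR). *Pdgfra* (26.6 and 36.7 against 62.7 and 49.9 CPM) was higher 2.36-fold within replicate 1 and 1.36-fold within replicate 2, with a log2 difference of 0.85 ± 0.34 (unadjusted p = 0.0560, adjusted p = 0.9997, and 0.576 with the block, edgeR). It was 1.72 at a mitochondrial limit of 5% and 1.29 at clustering resolution 2, where dividing primitive cells were a separate type. *Olig1* (870 and 815 against 896 and 1373 CPM) was the other gene without overlap, with a log2 difference of 0.44 ± 0.30 that was 0.09 without mutant replicate 2. Groups without overlap and with the mutant higher made up 7.54% of all genes tested in this stage, and 3 of the 8 members.

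*Sox10* and *Pdgfra* in microglia-like cells moved with their levels in pri-OPC-like cells, whereas the summed OPC markers in pri-OPC-like cells were higher in the mutant in replicate 1 only. Of the 8 OPC markers 6 were higher in both mutant libraries within their replicate, where 23.5% of all genes tested in the summed lineage were. The share of all genes within pri-OPC-like cells alone is not given. The summed level of the 8 was 803 and 410 CPM in control and 960 and 396 CPM in mutant libraries, and 0 of the 8 were at 0. In microglia-like cells *Pdgfra* was at 11.5 and 9.52 CPM in control and 66.6 and 16.3 CPM in mutant libraries. These levels rest on 32 and 3 UMIs in control and 61 and 7 UMIs in mutant libraries. *Sox10* was at 0.717 and 0 CPM in control and 14.2 and 2.33 CPM in mutant libraries. It rests on only 2 and 0 against 13 and 1 UMIs and did not pass the filter on low counts. The lineage made up 19.6% and 20.9% of kept cells in the control and 29.0% and 25.1% in the mutant libraries. The part of free RNA in the differences within pri-OPC-like cells was not tested.

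In the types outside the lineage where they were tested, most members were also mostly higher in the mutant libraries. These types share the same 4 libraries, so the counts below are not independent of each other. *Olig1* was higher within both replicates in 9 of the 9 other types in which it was tested, *Sox10* in 6 of 6, *Gpr17* in 5 of 5, *Olig2* in 7 of 8 and *Nkx2-2* in 4 of 5, and *Pdgfra* was higher in 7 and lower in 1 of 9. *Cspg5* was higher in 6 and lower in 1 of 10, *Sox8* higher in 3 and lower in 2 of 7, and *Egfr* higher in 2 and lower in 4 of 10. Over all genes tested in these types, 25.3% were higher and 23.9% lower in both replicates. The filter on low counts could be met by the libraries of a single genotype, so which types were tested was not independent of the direction. Types not tested went both ways, with *Sox10* lower in both replicates in fibroblast-like cells and higher in both in microglia-like cells. In 69 tests of members 0 passed without the block (0% of all genes called) and 5 had an unadjusted p under 0.05 (edgeR), where DESeq2 called 1 gene of all genes in the 10 types. The share of all genes at that unadjusted level is not given for these types, so the 5 cannot be weighed against it. With the block (0.141% of all genes called) 3 passed: *Olig1* in ependymal-like cells (11.5 CPM in control and 29.1 CPM in mutant libraries on average, 1.47-fold and 4.25-fold within replicates 1 and 2, adjusted p = 0.00244), *Pdgfra* in ependymal-like cells (6.43 and 16.6 CPM, 1.70-fold and 3.76-fold, adjusted p = 0.0474) and *Gpr17* in excitatory neuron-like cells (3.03 and 8.60 CPM, 12.8-fold and 1.48-fold, adjusted p = 0.0368). This *Gpr17* difference rests on 4 and 10 UMIs in control and 37 and 18 UMIs in mutant libraries. Over all libraries the 3 genes averaged 20.3, 11.5 and 5.82 CPM in these types, against 37.1, 26.0 and 5.57 CPM in microglia-like cells. The part of free RNA in these differences was not tested.

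In dividing and resting OPC-like cells the 9 members were all tested and 0 passed, without or with the block. Of 11610 genes in dividing cells 0 were called (0%, 13 or 0.112% at an unadjusted p under 0.05), and of 13234 in resting cells 0 (0%, 6 or 0.0453% at an unadjusted p under 0.05), with 0 by DESeq2 in both. *Pdgfra* in resting OPC-like cells was 1.20-fold of control in replicate 1 and 0.690-fold in replicate 2, and *Olig1* 0.891-fold and 1.66-fold. *Sox8*, *Sox10* and *Cspg5* were higher in both mutant libraries of resting OPC-like cells without overlap (6.53% of all genes tested), by 0.19 ± 0.22, 0.16 ± 0.24 and 0.13 ± 0.28 on the log2 scale. *Egfr* in resting OPC-like cells was lower in the mutant in replicate 1 and not in replicate 2.

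In committed OPC-like cells 0 of 10522 genes passed without the block (0% called, 28 or 0.266% at an unadjusted p under 0.05, and 0 by DESeq2) and 19 with it (0.181% called), and no member was among the 19. *Cspg5* was at 174 and 139 CPM in control and 107 and 81.6 CPM in mutant libraries. The groups did not overlap, as in 11.1% of all genes tested in this direction. The ratio was 0.615 within replicate 1 and 0.585 within replicate 2, and the log2 difference was −0.71 ± 0.28 (unadjusted p = 0.0511, adjusted p = 1, and 0.133 with the block, edgeR). In the precursor-led part *Cspg5* was at 235.5 CPM in control and 130.5 CPM in mutant replicate 1, with 19 cells in each replicate 2 library. In the myelin-led part it was at 32.0 and 79.6 CPM in control and 44.3 and 56.05 CPM in mutant replicates 1 and 2, so its direction there differed between replicates. *Egfr* was the other member lower without overlap, at 11.4 and 11.01 against 3.74 and 0 CPM, on 61 UMIs in all.

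Astrocyte genes moved with *Cspg5* and *Egfr*, both of which were also high in astrocyte-like cells. In committed OPC-like cells the 11 astrocyte markers summed to 271 and 415 CPM in control replicates 1 and 2. In mutant replicates 1 and 2 they summed to 121 and 142 CPM. Of the 11, 9 were lower in both mutant libraries within their replicate, and 0 were at 0 in all libraries. The share of all genes lower in both is not given for this stage. The astrocyte genes *Slc1a3*, *Slc1a2*, *Aqp4*, *Sparcl1* and *Apoe*, named after their values were seen, were among the 19 genes called with the block. So were *Fos*, *Egr1*, *Hist1h1e* and the mural marker *Rgs5*, also named after their values were seen. The 12 oligodendrocyte markers summed to 8651 and 11590 CPM in control and 9521 and 17190 CPM in mutant libraries. The sums of mural, fibroblast, primitive OPC and dividing markers were also lower in the mutant in both replicates. Mural markers fell from 110 to 16.0 CPM and fibroblast markers from 35.5 to 0.887 CPM in replicate 2. The sums of committed OPC and ependymal markers were higher in both replicates. The part of astrocyte RNA in the *Cspg5* difference was not tested.

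**Figure D5:**
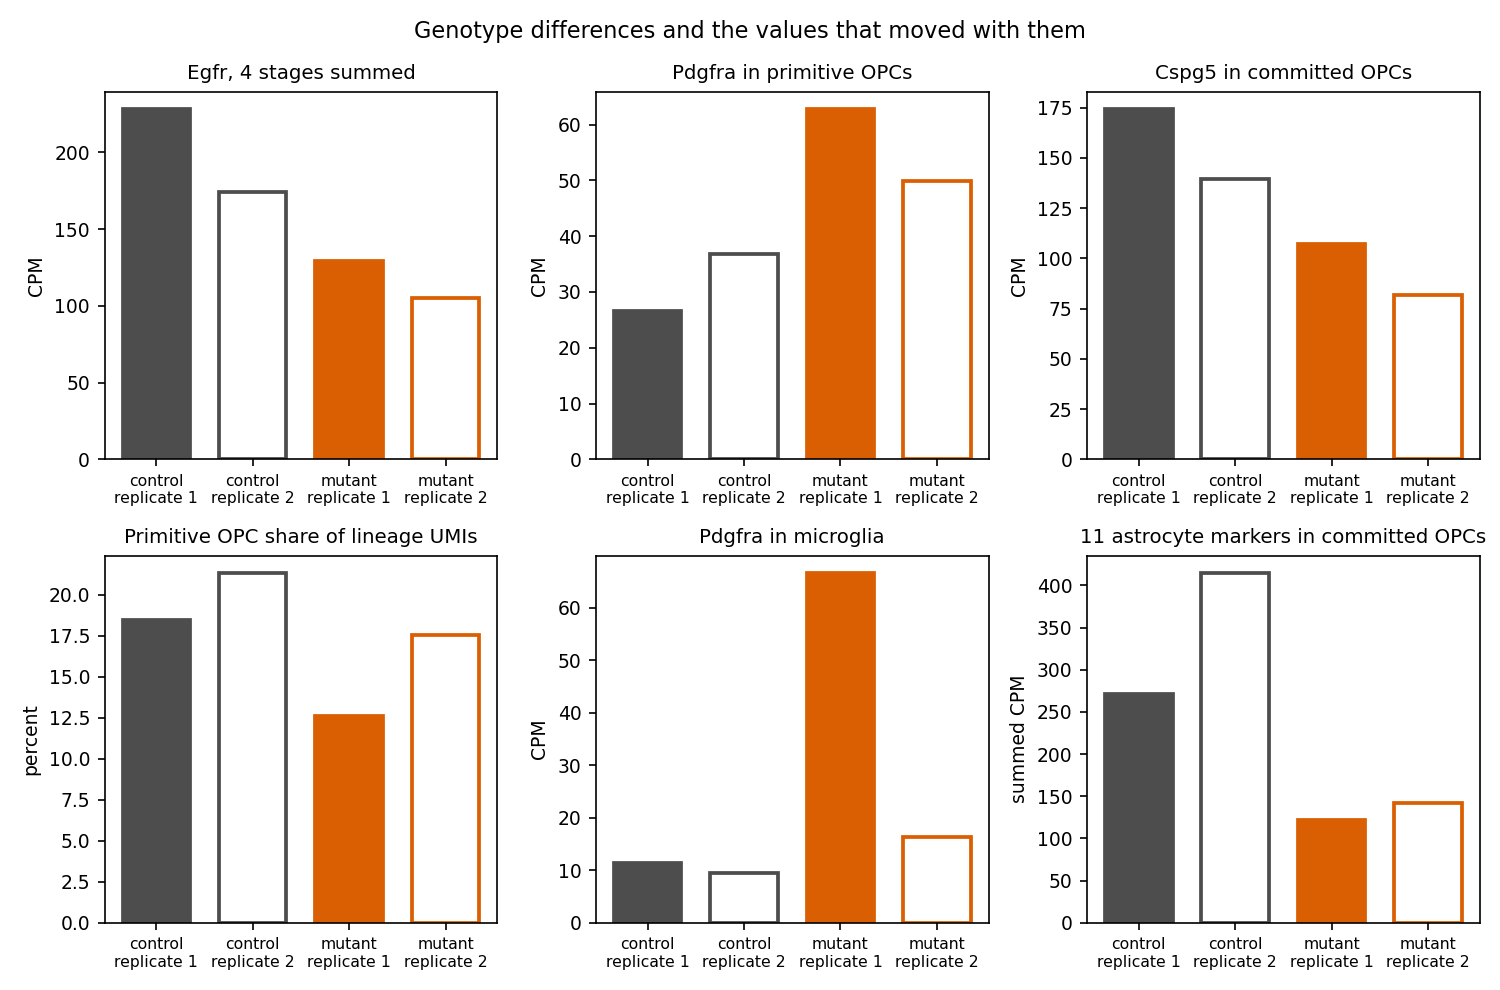
Upper row: level in CPM, by library, of *Egfr* over the 4 stages, *Pdgfra* in primitive cells and *Cspg5* in committed cells. Lower row: the percent of lineage UMIs from primitive cells (18.4% and 21.3% in control, 12.6% and 17.5% in mutant), *Pdgfra* CPM in microglia-like cells and the summed CPM of 11 astrocyte markers in committed cells, each of which differed between groups in the same direction as the bar chart above it. *Pdgfra* in microglia-like cells rests on 32 and 3 UMIs in control and 61 and 7 UMIs in mutant libraries.

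Whether the genotype difference itself varied between stages was tested with an interaction term over the 4 stages, in which each library is its own control. 3 of 12525 genes passed (0.024% called), and 0 of the 9 members did: *Sox10* had an unadjusted p of 0.00322, *Cspg5* 0.00713 and *Pdgfra* 0.0145, each with an adjusted p of 0.9996 (edgeR). The 3 genes, named after their values were seen, were the astrocyte genes *Slc1a3*, *Sparcl1* and *Slc1a2*. Their log2 difference in committed OPC-like cells minus that in resting OPC-like cells was −1.76, −2.38 and −1.49. With a replicate block by stage 35 genes passed (0.279% called), among them *Cspg5* (adjusted p = 0.000364) and *Pdgfra* (adjusted p = 0.000542), with *Sox10* at an adjusted p of 0.0592. This blocked interaction fit was not run on simulated counts, where the interaction fit without the block made 23 false calls. The 35 genes also held the haemoglobin genes *Hba-a1*, *Hba-a2* and *Hbb-bt*, named after their values were seen. In the blocked fit the log2 difference of *Pdgfra* in pri-OPC-like cells was 1.0 above that in resting OPC-like cells and that of *Cspg5* in committed OPC-like cells minus that in resting OPC-like cells was −0.78. *Olig1*, *Olig2*, *Nkx2-2*, *Sox8*, *Egfr* and *Gpr17* had adjusted p-values of 0.92 to 0.99 in the blocked fit.

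Of the 40 other specification genes 33 were tested in the summed lineage and 0 passed without the block. With the block 1 passed, *Dlx1*, a homeobox gene of ventral forebrain progenitors (adjusted p = 0.0149), which was lower in the mutant. It was at 97.7 ± 28.6 CPM in pri-OPC-like and 10.7 ± 7.06 CPM in resting OPC-like cells. Within pri-OPC-like, dividing and resting OPC-like cells it was lower in the mutant in both replicates. In committed OPC-like cells, where it was at 2.98 ± 2.85 CPM and not tested, it was higher in both. As for *Egfr*, its level in the sum moves with the mix of stages, and the part of the mix was not tested. *Dlx1* was also an inhibitory neuron marker used to name cell types, so its stage pattern is no independent result. Within replicates 10 of the 33 were higher and 7 lower in both, with a median log2 difference of −0.02 against 0.01 over all genes tested. In the single stages 28 were tested in pri-OPC-like, 29 in dividing, 31 in resting and 23 in committed OPC-like cells, and 0 passed in any of them, without or with the block.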

How the data were processed

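The authors deposited, for each of 4 libraries, a 10x Genomics matrix of UMI counts per gene and cell barcode, unnormalized. Per the file headers, Cell Ranger 7.0.0 made both replicate 1 matrices and 5.0.1 both replicate 2 matrices. The submitters' processing notes name version 3.0 and the build mm10. Since the headers tie each replicate number to 1 processing version, and same-numbered libraries deviated together from their group means (Pearson's r of 0.50 to 0.90 over genes in 15 cell groups), the replicate number was used as a block in an alternative fit.

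Barcodes were kept with UMIs between 2000 and 40000, a minimum of 1000 genes, and a mitochondrial share no higher than 10%. Counts were clustered with scanpy 1.11.5 (2000 variable genes without the 9 members, 30 components, Leiden resolution 1) into 30 clusters, and 118 cells stayed unnamed. Markers were listed beforehand, but the rule that scores them was set after seeing the cells. Scrublet marked 0.0914% to 2.60% of cells per library, under 0.5% in both replicate 2 libraries, and its marks were used only in an alternative. Counts were summed per library and cell type and tested with edgeR 4.0.16 (TMM, filterByExpr, quasi-likelihood, Benjamini-Hochberg) in R 4.3.3, after a check of the script on simulated data. With 2-fold changes simulated on top of the replicate difference, the fit without the block recovered 0% in the lineage and in resting and committed OPC-like cells. With the block 76.7%, 68.75% and 62.7% were recovered, with 5, 14 and 11 false calls. The interaction fit without the block recovered 33.7%, with 23 false calls. The interaction fit with the block was not run on simulated data. DESeq2 1.42.0 was an alternative. Others were RLE scaling, no filter on low counts, leaving out each library, resolution 2, members among the clustering genes, a mitochondrial limit of 5%, removal of marked doublets and unthinned cells. Shares were taken after thinning each cell to 2000 UMIs, and SDs are over libraries.

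The members and lists were chosen with earlier results of these data known. Named genes are the 9 members, the 3 genes with the most similar pattern to each (among genes reaching 50 CPM in at least 1 cell type), genes of a list of 40 specification genes that passed the test or reached 100 CPM in a stage, *Chd8* and *Xist*. Promoter windows and their coordinates came from RefSeq (GRCm38.p6), which matched 5 of the 9 members. Gene positions came from GENCODE vM21, and the position of *Gpr17* and the values of some listed genes are not reported here. UMI totals were 46274374 to 79328841 per library.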

Additional observations from a re-analysis of the deposited data

Results flagged for a closer look

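*Cspg5* and *Pdgfra* were picked out because their difference between mutant and control was itself different between stages of the lineage, by the genotype-by-stage interaction test with the replicate block (edgeR). The adjusted p was 0.000364 for *Cspg5*, whose log2 difference in committed OPC-like cells was lower than that in resting OPC-like cells (−0.78). The adjusted p was 0.000542 for *Pdgfra*, whose log2 difference in pri-OPC-like cells exceeded that in resting OPC-like cells by 1.0. Without the block both had an adjusted p of 0.9996. The interaction fit with the block was not run on simulated counts. The astrocyte marker sum in committed OPC-like cells and *Pdgfra* in microglia-like cells moved in the same direction, and their part was not tested. *Pdgfra* in microglia-like cells rests on 32 and 3 UMIs in control and 61 and 7 UMIs in mutant libraries.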

How the results depend on the processing

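Counts of called genes depended on the fit. In the summed lineage 0 genes became 7 with the replicate block. Over the 4 stages 0 became 12 with no filter on low counts and 19 with the block. Over the other cell types 0 became 1 with DESeq2, 133 with no filter, 161 with the block and 1 to 43 when 1 library was left out (43 without control replicate 1, 2 without control replicate 2, 1 without mutant replicate 1 and 4 without mutant replicate 2). In the interaction test 3 became 62 with no filter, 35 with the block, 0 at resolution 2, 0 at the mitochondrial limit of 5%, 1 with doublets removed and 0 to 7 when 1 library was left out (1 without control replicate 1, 0 without control replicate 2 and 7 without mutant replicate 1). With no filter *Pdgfra* and *Cspg5* passed the interaction test too (F of 11.6 and 10.1, adjusted p of 0.00015 and 0.00115, edgeR), against F of 21.2 and 22.4 with the block.

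Among the members' log2 differences in the lineage, *Olig1* turned to −0.0493 and *Olig2* to −0.0302 without mutant replicate 2 (ranges over libraries left out up to 0.593 and 0.381). *Nkx2-2* turned to −0.00103 without control replicate 2 and to −0.147 without mutant replicate 1 (up to 0.669), and *Pdgfra* to 0.535 and 0.0346 without the same libraries (down to −0.628). The cause was not tested. Apart from the blocked calls given above, the block changed no other call of a member in the lineage or its stages.

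At the mitochondrial limit of 5% the difference in the share of primitive cells was −0.578 points against −4.47 (−6.54 to −2.41 when 1 library was left out), and the type of highest level matched for 4 of 9 members. Committed OPC-like cells, the highest type of 4 members, then had under 20 cells in 1 library and were not ranked, and *Pdgfra* was highest in resting instead of dividing OPC-like cells. Without thinning, *Pdgfra* was found in 97.0% of resting OPC-like cells against 86.4%, and *Pdgfra* with *Gpr17* in 51.8% of lineage cells against 21.7%, as deeper cells hold more UMIs. Few UMIs were counted for *Gpr17* in primitive (18) and *Egfr* in committed OPC-like cells (61).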

Other observations

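Replicates of one genotype differed in several members by more than the genotypes did. In resting OPC-like cells the log2 difference of replicate 2 minus replicate 1 was 1.06 in control and 0.26 in mutant libraries for *Pdgfra*, and 0.66 and 0.50 for *Gpr17*. For *Olig1* it was −0.16 in control and 0.73 in mutant libraries, and for *Egfr* −0.49 and 0.55. *Nkx2-2* was lower in replicate 2 in both genotypes, by −0.29 and −0.25.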
